A study of Mus musculus with 27 samples.

Results

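The collagen chain genes of the infarcted mouse heart are described here, class by class. Members were all rows of the count table whose symbol reads Col, a number, the letter a and a number, which gave 44 of 27304 genes. By textbook class they comprised 11 fibrillar, 9 network-forming, 9 fibril-associated, 8 beaded-filament and related, 4 transmembrane, 2 multiplexin and 1 anchoring-fibril gene. All animals were male ApoE-/- mice of the strain C57BL/6J, and hearts were taken 7 days after myocardial infarction (MI), so the control mice also lacked ApoE and carried an infarct. Every mouse first ate a western diet for 4 weeks, and the control mice stayed on it. The chronic kidney disease (CKD) mice went on to the same diet with 0.3% adenine for 10 days and then 0.15% adenine for 11 days, of which 4 fell before and 7 after MI. Bulk RNA-seq covered 14 remote pieces (6 control, 8 CKD) and 13 infarct pieces (6 control, 7 CKD), with both pieces from the same heart in 13 mice. For single genes, p-values between diets within a region measure the spread between these mice. Those for region and for the interaction treat the 27 libraries as separate, and a fit with each mouse as a block is an alternative.

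Collagens are secreted proteins whose alpha chains wind around each other, and each chain has a gene of its own. Fibrillar collagens pack into the tensile fibres of scar, network collagens form the basement membrane sheets around muscle fibres and capillaries, and fibril-associated collagens decorate the fibre surface. In the heart, fibroblasts are the main source of fibrillar collagen, and after infarction they turn into matrix-secreting cells that lay down the scar.

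Totals ran from 14255456 to 42566498 counts per library, and levels are given as CPM, each gene's counts scaled to the same library total after TMM normalization. A cardiomyocyte score, the mean log2 CPM of 12 muscle genes, all 12 of them in the table, was 11.44 to 12.66 in control remote, 12.36 to 12.70 in CKD remote, 7.73 to 10.81 in control infarct and 10.81 to 12.66 in CKD infarct libraries. The summed level of these genes was 51825 to 118651, 95233 to 125761, 5076 to 33641 and 32811 to 122715 CPM in the same order, and none was at 0 in a group. A set of 10 genes of activated fibroblasts, all 10 in the table, none of them a collagen and none at 0 in a group, summed to 345 to 4239, 188 to 587, 5026 to 11291 and 261 to 5242 CPM. Muscle genes are thus part of every library. The infarct pieces of CKD mice 9172 and 9179 had scores of 12.32 and 12.66, among those of the remote pieces. The infarct pieces of CKD mice 9176 and 9177, at 11.65 and 11.73, lay below every remote piece except that of control mouse 9180. That piece was at 11.44, and the next lowest remote score was 12.265, in control mouse 9183.

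Across the libraries 3 stood apart from their groups. The remote library of control mouse 9180 held Col1a1 at 3866 CPM, against 173 to 1047 CPM in the other control remote libraries. The infarct library of CKD mouse 9179 held 80.8 CPM, below its own remote library at 206.5 CPM, and had a cardiomyocyte score of 12.66. The infarct library of CKD mouse 9172 held 1651 CPM. In addition, mouse 9179 has a remote piece whose title says CKD and whose treatment label says control. It was kept with the CKD group by its title, and main values are also given without the library that stands apart.

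Upstream sequences are shown for 3 genes of different classes or structure whose transcripts were all higher in infarct tissue, Col3a1, Col5a1 and Col8a1, to show how unlike their upstream regions are. Their windows overlap no annotated exon. The sequences are the 250 bases before the RefSeq gene start on build GRCm38.p6, written 5′ to 3′ on the gene's strand. Capitals mark matches on either strand to the CCAAT box, to the TATA box searched as TATAAA, or to the GC box searched as GGGCGG.
Col3a1, chr1:45311288-45311537, plus strand: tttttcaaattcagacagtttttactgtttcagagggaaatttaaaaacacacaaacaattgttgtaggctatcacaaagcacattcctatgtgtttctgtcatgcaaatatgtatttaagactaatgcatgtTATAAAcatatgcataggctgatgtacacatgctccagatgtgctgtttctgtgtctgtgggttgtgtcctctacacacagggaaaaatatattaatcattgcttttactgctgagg
Col5a1, chr2:27886175-27886424, plus strand: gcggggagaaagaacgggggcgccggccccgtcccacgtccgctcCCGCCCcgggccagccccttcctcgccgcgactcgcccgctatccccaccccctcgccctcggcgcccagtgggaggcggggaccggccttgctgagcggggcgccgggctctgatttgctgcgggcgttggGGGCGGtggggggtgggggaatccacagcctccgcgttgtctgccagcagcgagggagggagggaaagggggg
Col8a1, chr16:57754738-57754987, minus strand: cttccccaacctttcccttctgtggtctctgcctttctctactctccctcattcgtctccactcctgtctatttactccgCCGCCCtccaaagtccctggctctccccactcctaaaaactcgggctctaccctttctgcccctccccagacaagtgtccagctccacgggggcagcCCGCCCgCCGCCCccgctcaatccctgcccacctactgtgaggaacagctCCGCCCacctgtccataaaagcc

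The windows differ in base composition, with 35.2% G and C for Col3a1, 76.4% for Col5a1 and 60.8% for Col8a1. Only the Col3a1 window holds TATAAA, and GGGCGG or its reverse complement stands 2 times before Col5a1 and 4 times before Col8a1. RefSeq windows were found for 35 of the 44 members. GGGCGG was in those of 21 members, or 60.0%, against 32.7% of all 32851 windows of the same length. CCAAT was in those of 13 members (37.1%, against 33.8%) and TATAAA in those of 5 (14.3%, against 12.4%). Members were counted once over all their windows, 38 in total, while the background counts each window, so the units differ. A match is a run of letters, not a measured binding site.

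The first question was where collagen transcripts are found. Collagen genes took 0.184% to 1.93% of counts in control remote, 0.141% to 0.317% in CKD remote, 4.01% to 8.51% in control infarct and 0.0978% to 4.48% in CKD infarct libraries. Medians in that order were 0.378%, 0.187%, 5.19% and 2.21%. Genes were then ranked by group mean per kilobase of the longest annotated transcript. Col3a1, Col1a1 and Col1a2, the chains of type III and type I collagen, held the top 3 places in control remote, control infarct and CKD infarct tissue. In control remote tissue these means rested in good part on the library of mouse 9180, the highest for each gene. Medians there, in CPM and not per length, were 604, 387 and 369 for these genes, 646 for Col4a1 and 482 for Col4a2. In CKD remote tissue Col4a1, a basement membrane chain, ranked first at 78.9 ± 25.8 CPM per kb (SD, n = 8), followed by Col3a1 at 65.2 ± 25.95 and Col4a2 at 63.9 ± 18.8, neighbours that lie within each other's spread. Col3a1 stood at 222 ± 264 in control remote (n = 6), 2219 ± 601 in control infarct (n = 6) and 966 ± 646 CPM per kb in CKD infarct tissue (n = 7).

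The make-up of the collagen counts differed by region. Fibrillar genes held 36.9% to 71.9% of collagen counts in control remote (median 39.03%), 35.3% to 46.6% in CKD remote (39.2%), 79.6% to 90.6% in control infarct (83.9%) and 36.4% to 85.5% in CKD infarct libraries (75.8%). All 6 control infarct libraries lay above every remote library, and in CKD infarct the lowest value was that of mouse 9179. Network genes went the other way, with medians of 39.2%, 40.03%, 7.13% and 11.8% in the same order, and so did beaded genes, with 13.4%, 12.9%, 4.45% and 6.76%. Fibril-associated genes kept a small share in each group, with medians of 1.97%, 1.84%, 2.25% and 1.92%. These shares are a description and were not tested.

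**Figure D1:**
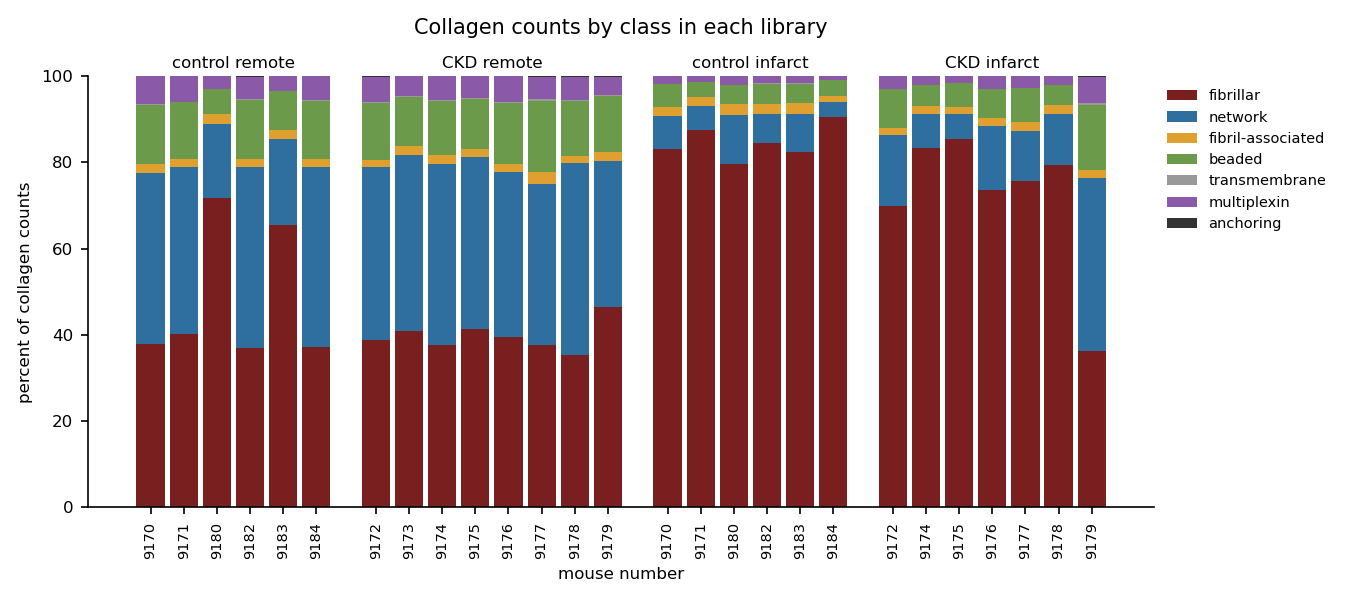
Percent of all collagen counts held by each class (y axis) in each of the 27 libraries (x axis, mouse number, grouped by diet and region). Fibrillar genes hold 79.6% to 90.6% in control infarct libraries, and the infarct library of CKD mouse 9179 stands at 36.4%, at the level of remote libraries.

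The second question was which collagen genes differ between infarct and remote tissue of control mice. Infarct tissue had more transcript of 29 collagen genes and less of 4, among 39 members with enough counts to be tested (edgeR quasi-likelihood test over all genes, Benjamini-Hochberg adjusted p under 0.05). Of all 14770 genes tested, 30.7% were called higher and 33.2% lower. Under total-count scaling, which moves the median of all genes by 0.48 on the log2 scale, 8217 genes were higher and 2481 lower instead of 4528 and 4909, while among collagens 33 were higher and 3 lower. Over the 44 members without any filter, the median log2 fold change was 1.70 and 37 were higher, against a median of 0.00 over all genes. In 16 members every control infarct library lay above every control remote library, and in 2 below, as in 11.5% and 11.9% of all genes with a count. Muscle and fibroblast signals moved with region as given above, and with the cardiomyocyte score as a covariate no collagen gene was called in control mice (0 of all 14770 genes, 1605 of them at an unadjusted p under 0.05). The scores of control infarct and control remote pieces do not overlap, so this fit can hardly separate region from muscle content. Fewer cells of a type and less RNA per cell cannot be told apart in bulk tissue.

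Of the fibrillar genes 10 of 11 rose in control infarcts. Col1a1, the major chain of type I collagen, had a lowest, median and highest level of 173, 387 and 3866 CPM in control remote and 8227, 10469.5 and 20336 CPM in control infarct libraries. The groups did not overlap, and the log2 fold change was 3.59 ± 0.78 (SE; edgeR adjusted p = 0.000334), or 4.79 without the remote library of mouse 9180. Col1a2, its partner chain, ran from 194 to 3255 CPM (median 369) in remote and from 6705 to 13505 CPM (median 8082) in infarct tissue, a log2 fold change of 3.29 ± 0.70. Col3a1, the chain of the finer type III fibres, ran from 271 to 4077 CPM (median 604) and from 8178 to 16283 CPM (median 11987), a log2 fold change of 3.32 ± 0.68. Without the remote library of mouse 9180 these 2 were at 4.38 and 4.21.

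Among the chains of types V and XI, which set fibril diameter, Col5a1, Col5a2, Col5a3 and Col11a1 rose. Col5a1 went from 72.4, 124 and 494 CPM (lowest, median, highest) in control remote to 924, 1271 and 2104 CPM in control infarct libraries, with no overlap and a log2 fold change of 2.91 ± 0.53 (edgeR adjusted p = 6.55e-05). Col5a2 went from 28.8, 65.0 and 476 to 646, 917 and 1499 CPM, with a log2 fold change of 2.98 ± 0.66. Without mouse 9180 they were at 3.54 and 4.15. Col11a1, best known from cartilage, was 0 to 0.850 CPM in 5 control remote libraries and 30.3 CPM in that of mouse 9180, against 11.7 to 180.5 CPM in infarct libraries. Mouse 9180 made these groups overlap, and the log2 fold change was 3.67 ± 1.11 with it and 7.44 without it. Col24a1, a minor fibrillar chain, ran from 0.130 to 1.81 CPM in remote and from 4.68 to 31.6 CPM in infarct tissue with no overlap, and had the second smallest p of the members (log2 fold change 4.04 ± 0.74, edgeR adjusted p = 6.21e-05). Col27a1, another minor fibrillar chain, had the smallest p, with 9.35, 13.9 and 32.8 CPM in remote against 52.4, 62.3 and 71.0 CPM in infarct libraries (1.85 ± 0.29, edgeR adjusted p = 1.77e-05). The fibrillar gene that was not called was Col11a2, at 0.36 ± 0.27.

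The network class split. Col8a1 and Col8a2, short-chain collagens of vessels and the corneal Descemet membrane, rose with the fibrillar genes. Col8a1 ran from 12.7 to 375 CPM (median 31.95) in control remote and from 119.5 to 640.1 CPM (median 405.5) in control infarct libraries, a log2 fold change of 2.26 ± 0.71, or 3.84 without the remote library of mouse 9180. Col8a2 had a log2 fold change of 3.22 ± 0.86 (5.48 without that library), from 0.325, 3.02 and 62.4 to 20.7, 126 and 194 CPM. The common basement membrane chains moved little. Col4a1 went from 473, 646 and 1477 to 809, 1379.7 and 1648 CPM, overlapping, and at 0.69 ± 0.33 was not called (edgeR adjusted p = 0.0689). With each mouse as a block it was called, at 0.78 (edgeR adjusted p = 0.0091), and likewise without the remote library of mouse 9180, at 0.95 (edgeR adjusted p = 0.014). Col4a2 went from 405, 482 and 946 to 623, 999.9 and 1135 CPM and was called at 0.67 ± 0.29 (edgeR adjusted p = 0.0456). Its call was lost in 8 of the fits that left out 1 library, namely remote 9170, 9182, 9183 or 9184 and infarct 9171, 9180, 9182 or 9183, where the log2 fold change was 0.59 to 0.68 (edgeR adjusted p = 0.0576 to 0.103). Col4a5 and Col4a6, which form a network in smooth muscle and some epithelia, rose by 0.99 ± 0.23 and 1.36 ± 0.36 on the log2 scale.

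The opposite direction was taken by Col4a3 and Col4a4, the chains of the mature kidney and lung basement membrane. Col4a4 ran from 9.56 to 15.3 CPM (median 12.3) in control remote and from 1.83 to 7.02 CPM (median 5.22) in control infarct libraries, with no overlap. Its log2 fold change was -1.35 ± 0.25 (edgeR adjusted p = 7.09e-05), and -0.85 under total-count scaling. Col4a3 ran from 1.82 to 4.90 CPM (median 3.26) and from 0.820 to 1.86 CPM (median 1.39), overlapping, with a log2 fold change of -1.27 ± 0.25 (-0.78 under total-count scaling). Both were called under every alternative run except the covariate.

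Fibril-associated genes rose in 6 of 8 tested members. Col12a1, whose protein bridges fibrils in tendon and scar, went from 0.910, 4.53 and 64.3 CPM in control remote to 61.9, 123 and 195 CPM in control infarct libraries, where mouse 9180 gave the overlap (log2 fold change 3.14 ± 0.82, and 4.96 without it). Col14a1, a related bridging collagen, went from 16.96, 39.7 and 193 to 367, 433 and 749.6 CPM with no overlap (2.96 ± 0.58, edgeR adjusted p = 0.000116). Col16a1, a minor fibril-surface collagen, went from 13.6, 25.7 and 130.4 to 188, 271 and 445 CPM with no overlap (2.80 ± 0.55). Col9a2 was called at 1.73 ± 0.69, but lost the call in 7 of the fits that left out 1 library (remote 9170, 9171, 9182, 9183 or 9184, infarct 9180 or 9183), at 1.51 to 1.63. Col20a1, a little-studied member of the class, was lower, with 3.29, 4.14 and 6.35 CPM in remote and 1.24, 2.37 and 3.16 CPM in infarct libraries, with no overlap (-0.97 ± 0.23, edgeR adjusted p = 0.00066). Col22a1, a collagen of tissue junctions, was not called at -0.33 ± 0.43.

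Beaded-filament genes rose in 5 of 7 tested members. Col6a1, a core chain of the microfibrils around cells, went from 114, 180.0 and 412 CPM in control remote to 584, 695 and 868 CPM in control infarct libraries with no overlap (1.71 ± 0.36, edgeR adjusted p = 0.000236). Col6a3, the long chain of the same microfibril, went from 49.2, 83.0 and 156 to 226.5, 401 and 474 CPM with no overlap (2.04 ± 0.40). Col6a6, an alternative long chain, was lower, at 2.44, 14.4 and 19.7 CPM against 1.90, 5.79 and 9.27 CPM, overlapping (-1.13 ± 0.42, edgeR adjusted p = 0.0204). That call was lost under total-count scaling (-0.58, edgeR adjusted p = 0.16) and without the remote library of mouse 9170 (-0.94, edgeR adjusted p = 0.0587).

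Among the remaining classes, the multiplexins Col15a1 and Col18a1, which link basement membranes to the matrix, rose. Col18a1 went from 16.2, 32.8 and 83.6 CPM in control remote to 142, 158 and 257 CPM in control infarct libraries with no overlap (2.13 ± 0.42). Col15a1 went from 97.7, 165 and 404 to 295, 479 and 522 CPM, overlapping through mouse 9180 (1.15 ± 0.37, edgeR adjusted p = 0.00876). Col7a1, the anchoring-fibril collagen of skin, rose by 2.31 ± 0.46 on the log2 scale. Neither transmembrane gene tested was called. Col13a1, an adhesion collagen of neuromuscular and other junctions, had 1.10, 1.73 and 2.44 CPM in control remote and 1.12, 1.85 and 2.97 CPM in control infarct libraries (0.17 ± 0.29), and under total-count scaling it was called at 0.67.

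**Figure D2:**
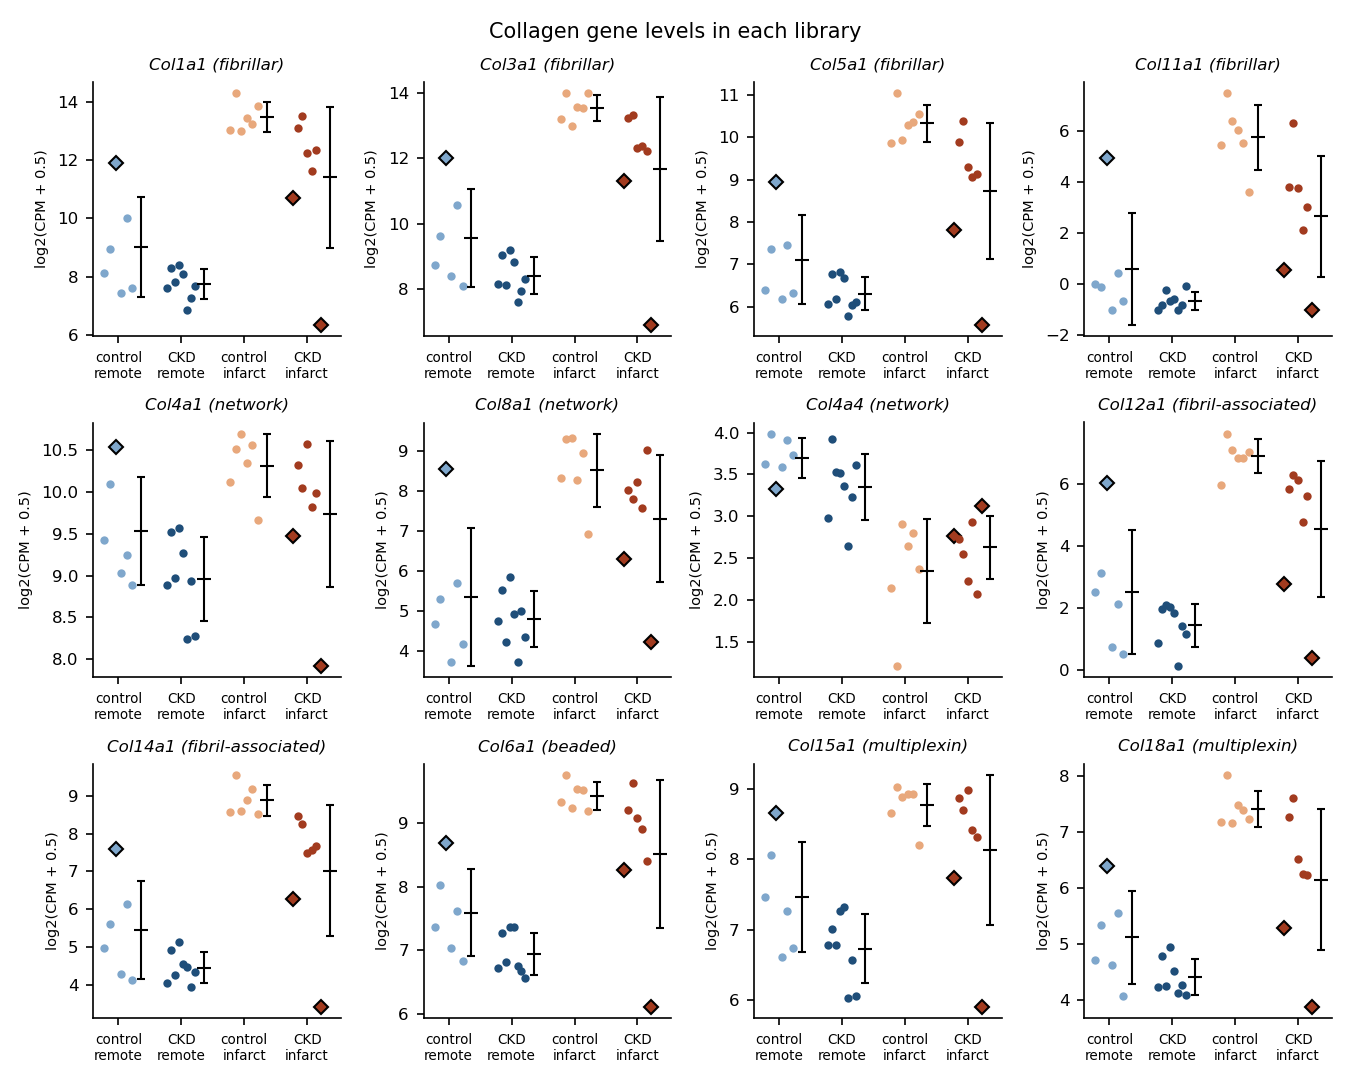
Level of 12 collagen genes as log2(CPM + 0.5) (y axis) in each library (points) of the 4 groups (x axis), with mean and SD beside the points. Diamonds with a black edge are the 3 libraries that stand apart, control remote 9180 and CKD infarct 9172 and 9179. For Col1a1 all control infarct libraries lie above all remote libraries, and for Col4a4 all lie below the control remote libraries.

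The third comparison was the same one in CKD mice. Here 28 collagen genes were higher and 3 lower in infarct than in remote tissue, against 24.7% of all 14770 genes called higher and 20.2% lower. Under total-count scaling 6503 genes were higher and 1201 lower instead of 3654 and 2990, and collagens 29 and 3. The 2 comparisons had 27 higher collagen genes in common, which is 27 of 29 from control and 27 of 28 from CKD mice, and 3 lower ones, Col4a3, Col4a4 and Col20a1. Col2a1 and Col9a3 were higher in the control list and not in the CKD list, and Col4a1 the reverse. With the cardiomyocyte score as a covariate 16 collagen genes were still called higher, and 1, Col4a3, lower, against 9.91% and 3.87% of all genes. In CKD mice the scores of the regions overlap through the infarct of mouse 9179 (12.66, against 12.36 to 12.70 in remote pieces). In control mice they do not (at most 10.81 in infarct, at least 11.44 in remote pieces). The covariate fits of the diets therefore cannot be compared.

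No member had CKD infarct and remote libraries fully apart (0.813% of all genes were fully above and 0.771% below), and for 23 members 6 of the 7 CKD infarct libraries lay above every CKD remote library. The share of all genes that meet this looser rule was not counted. The remaining library was that of mouse 9179 for 22 of these members and that of mouse 9172 for 1. Within mouse 9179, 11 members were higher and 30 lower in the infarct than in the remote piece, with Col1a1 at -1.35 on the log2 scale. In the other CKD mice 30 to 36 members were higher, and Col1a1 was higher by 3.09 to 5.30. Among control mice 33 to 38 members were higher, and Col1a1 was higher by 1.09 in mouse 9180 and by 3.23 to 6.24 in the others. Mouse 9179 is thus the only one of the 13 in which most collagen genes were lower in the infarct piece. These within-mouse counts were not made over all genes.

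Levels in the CKD groups were as follows for the fibrillar genes. Col1a1 ran from 115 to 339 CPM (median 215) in CKD remote and from 80.8 to 11909 CPM (median 4932) in CKD infarct libraries, a log2 fold change of 4.50 ± 0.71 (edgeR adjusted p = 8.95e-05). Col1a2 ran from 172 to 323 CPM (median 207) and from 114.5 to 8823 CPM (median 3946), a log2 fold change of 4.11 ± 0.63 and the smallest p of the members (edgeR adjusted p = 8.28e-05). Col3a1 ran from 193 to 591 CPM (median 302) and from 120.0 to 10303.5 CPM (median 5098.5), a log2 fold change of 3.89 ± 0.62. In all 3 genes 6 infarct libraries were above the remote range and that of mouse 9179 below it, and without that library the values were 4.75, 4.36 and 4.14. Col24a1 was 0 to 0.253 CPM in CKD remote and 0.0887 to 8.84 CPM in CKD infarct libraries, with the second smallest p (5.38 ± 0.83). Col11a1, at 0 to 0.443 CPM in CKD remote and 0 to 78.9 CPM in CKD infarct libraries, had a fitted log2 fold change of 6.81 ± 1.38, which rests on very few remote counts.

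Type V chains followed. Col5a1 ran from 54.6 to 112 CPM (median 70.8) in CKD remote and from 47.3 to 1339.9 CPM (median 561) in CKD infarct tissue (2.91 ± 0.47, edgeR adjusted p = 9.98e-05). Col5a2 ran from 21.7 to 52.0 CPM (median 31.8) and from 17.6 to 802 CPM (median 443), with a log2 fold change of 3.596 ± 0.59. Without the infarct library of mouse 9179 these 2 were 3.15 and 3.84.

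Of network genes, Col4a1 ran from 303 to 757 CPM (median 495) in CKD remote and from 242 to 1525 CPM (median 1012) in CKD infarct tissue (0.88 ± 0.29, edgeR adjusted p = 0.019). Col4a2 ran from 246 to 579 CPM (median 402) and from 204 to 1095.5 CPM (median 673), a log2 fold change of 0.76 ± 0.26. Both calls were lost without the infarct library of mouse 9176, where Col4a1 was at 0.73 (edgeR adjusted p = 0.0533) and Col4a2 at 0.62 (0.0614 by the same test). Col8a1 rose by 2.91 ± 0.65 on the log2 scale, from a median of 28.1 to one of 222.5 CPM, and Col8a2 by 5.03 ± 0.88. Col4a3 and Col4a4 fell by 0.87 and 0.78 on the log2 scale, with medians of 2.29 and 1.06 CPM for Col4a3 and 10.4 and 6.13 CPM for Col4a4.

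Among the other classes, Col12a1 rose by 4.07 ± 0.78, Col14a1 by 3.08 ± 0.51 and Col16a1 by 2.87 ± 0.49 on the log2 scale. Medians went from 2.64 to 48.7 CPM for Col12a1, from 20.5 to 188 CPM for Col14a1 and from 15.7 to 136 CPM for Col16a1. Col6a1 rose from a median of 110.0 to one of 484 CPM (1.83 ± 0.32), Col6a3 from 53.0 to 281 CPM (2.31 ± 0.36), Col15a1 from 110.0 to 340.0 CPM (1.58 ± 0.33) and Col18a1 from 18.6 to 75.1 CPM (2.12 ± 0.37). Col20a1 fell by 0.82 on the log2 scale, from a median of 3.50 to one of 2.03 CPM. Col6a6, at -0.68 ± 0.37, was not called (edgeR adjusted p = 0.136), but with each mouse as a block it was, at -0.93 (edgeR adjusted p = 0.012). Col5a3 lost its call without the infarct library of mouse 9174, at 0.71 (edgeR adjusted p = 0.0787).

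**Figure D3:**
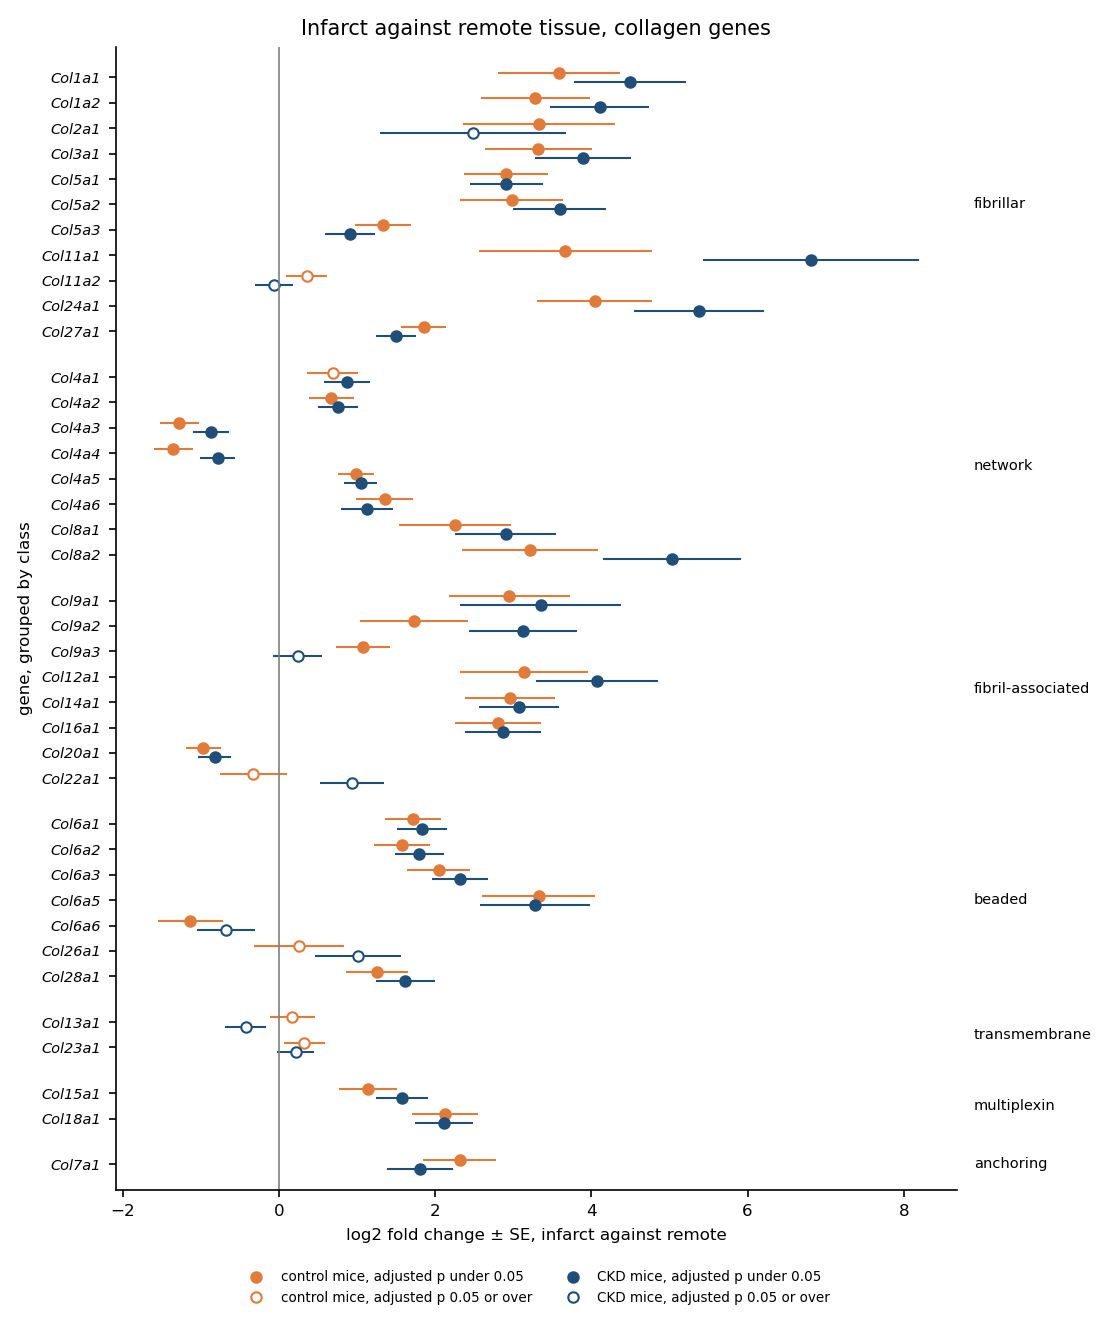
Log2 fold change ± SE of infarct against remote tissue (x axis) for the 39 tested collagen genes (y axis, by class) in control and CKD mice. Filled points passed the test. Fibrillar genes such as Col1a1 (3.59 and 4.50) lie far to the right, while Col4a3 (-1.27 and -0.87), Col4a4 (-1.35 and -0.78) and Col20a1 (-0.97 and -0.82) lie left of 0 in both diets.

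The fourth question was what CKD changes in remote myocardium. No collagen gene was called (0 of 34 tested by edgeR, 0 by DESeq2, 0 by limma-voom), although 24 of the 34 had an unadjusted p under 0.05, as did 11.7% of all genes. Of all 13902 genes tested, 0.0216% were called, which is 3 genes (154 by DESeq2 and 5 by limma-voom). The estimates leaned to lower values in CKD. Of the 34 tested members 31 had a negative log2 fold change, with a median of -0.82. Over all 44 members without a filter 40 were lower, with a median of -0.90, against 54.1% of all genes lower and a median of -0.02. This lean rested in good part on the remote library of control mouse 9180. Without it 28 of 34 members were lower and the median was -0.50. With limma-voom the median was -0.25, and with the cardiomyocyte score as a covariate 26 of 34 were lower with a median of -0.18.

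Col8a2 had the smallest p, with 0.325, 3.02 and 62.4 CPM (lowest, median, highest) in control and 0.631, 1.01 and 2.33 CPM in CKD remote libraries. The groups overlapped, and the log2 fold change was -3.54 ± 0.89 (edgeR adjusted p = 0.236), or -1.18 without mouse 9180. Col1a1 stood at 387 CPM (median) in control and 215 CPM in CKD remote tissue, at -2.23 ± 0.61 (edgeR adjusted p = 0.272), or -0.96 without mouse 9180. Col1a2 was at -2.02 ± 0.55 and Col3a1 at -1.83 ± 0.54, or -0.87 and -0.89 without that library. Of the type V chains Col5a1 was at -1.19 ± 0.39 and Col5a2 at -1.94 ± 0.56, or -0.51 and -0.71 without it.

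Other classes had smaller or equally dependent estimates. Col4a1 was at -0.67 ± 0.28 and Col4a2 at -0.56 ± 0.24, or -0.38 and -0.35 without mouse 9180. Col8a1 was at -1.61 ± 0.66 with that library and 0.03 without it, so its direction turned. Col12a1 was at -2.61 ± 0.79 (-0.70 without it), Col14a1 at -1.56 ± 0.46 (-0.75) and Col16a1 at -1.38 ± 0.43 (-0.53). Col6a1 was at -0.80 ± 0.26, Col6a3 at -0.76 ± 0.25, Col15a1 at -0.90 ± 0.31 and Col18a1 at -0.95 ± 0.30, all with an adjusted p over 0.3, or -0.47, -0.50, -0.54 and -0.54 without mouse 9180. Col13a1 was 1 of the 3 members with a positive estimate, at 0.51 ± 0.23 (edgeR adjusted p = 0.406), with medians of 1.73 and 2.48 CPM. Reading the remote piece of mouse 9179 as a control instead, 30 of 34 members were lower, with a median of -0.66. Remote collagen levels moved together with activated-fibroblast genes, which summed to a median of 481 CPM in control and 370 CPM in CKD remote libraries and to 4239 CPM in that of mouse 9180, and their part in these values was not tested.

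The fifth comparison was CKD against control in infarct tissue. One gene was lower, Col2a1, the chain of cartilage type II collagen, and none was higher, among 39 tested members. Of all 14358 genes tested, 7.14% were called lower and 13.1% higher. Under total-count scaling, which moves the median of all genes by -0.29, 2846 genes were lower and 791 higher instead of 1025 and 1883, and 3 collagens were lower (19.8% of all genes), Col2a1, Col4a6 and Col7a1. The fit of all 27 libraries called 6 lower, against 11.5% of all genes. At an unadjusted p under 0.05 there were 13 of the 39 members and 40.2% of all genes. DESeq2, which keeps low genes, called 9 of 44 members lower (8.34% of all genes) and limma-voom with sample weights 8 of 39 (7.33%), and the genes called by both were Col12a1, Col16a1, Col4a6 and Col7a1. Of the 39 tested members 36 had negative estimates, with a median of -0.84. Over all 44 members without a filter 39 were lower, with a median of -0.72, against 52.0% of all genes lower and a median of -0.03. CKD infarct pieces also had the higher cardiomyocyte scores and the lower activated-fibroblast sums given above. With that score as a covariate no member was called and the median was -0.28, and 0 of all 14358 genes were called, with 545 at an unadjusted p under 0.05. The scores of the infarct groups do not overlap (at most 10.809 in control, at least 10.813 in CKD). This fit can therefore hardly separate diet from muscle content.

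Col2a1 was found in very small amounts. Control infarct libraries held 0.0864, 1.23, 1.47, 13.2, 13.7 and 23.9 CPM, and CKD infarct libraries 0, 0.055, 0.124, 0.533, 0.939, 1.07 and 1.28 CPM. The groups overlapped, with control libraries falling into 3 at or under 1.47 CPM and 3 at or above 13.2 CPM. Its log2 fold change was -3.96 ± 1.0002 (edgeR adjusted p = 0.0345). The call was lost, and no gene at all was called in this comparison, without the control library of mouse 9171, 9182 or 9183 or the CKD library of mouse 9172 or 9177 (edgeR adjusted p = 0.0527 to 0.0837). Without both CKD libraries 9172 and 9179 the value was -3.61 (edgeR adjusted p = 0.093). DESeq2 also called Col2a1 lower, while limma-voom with sample weights did not call it. The 6 cartilage markers, all in the table, summed to 80.6 to 616 CPM in control infarct and 20.9 to 216 CPM in CKD infarct libraries, with none at 0 in either group, although 2 and 3 of them, respectively, had a median under 1 CPM. Comp, Sox9 and Acan made up most of the sum. Comp, which is also in the set of activated-fibroblast genes, was at 55.65 to 535.7 CPM in control and 8.42 to 151.24 CPM in CKD infarct libraries. In the same order Hapln1 was at 0.05 to 0.17 and 0 to 0.18 CPM, Chad at 0.53 to 1.61 and 0.13 to 1.06 CPM, and Matn3 at 0.3 to 4.93 and 0 to 2.89 CPM. In the control infarcts of mice 9170, 9171, 9180, 9182, 9183 and 9184, Acan stood at 31.4, 118, 21.8, 47.8, 33.9 and 0.56 CPM. Col2a1 stood at 1.23, 23.9, 13.7, 1.47, 13.2 and 0.0864 CPM in the same order. Mouse 9171 was thus highest and mouse 9184 lowest for both, while the order in between differed. The part of the cartilage markers in the Col2a1 value was not tested.

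The scar fibre genes were not called, and their values overlapped between diets. Col1a1 had 8227, 10469.5 and 20336 CPM (lowest, median, highest) in control and 80.8, 4932 and 11909 CPM in CKD infarct libraries, at -1.28 ± 0.70 (edgeR adjusted p = 0.182), or -0.89 without CKD mice 9172 and 9179. Col1a2 was at -1.16 ± 0.63, Col3a1 at -1.23 ± 0.62, Col5a1 at -1.16 ± 0.53 and Col5a2 at -1.28 ± 0.57, with adjusted p of 0.108 to 0.182 over these genes. Without those mice they were at -0.78, -0.88, -0.80 and -0.91. Col11a1 had 55.7 CPM (median) in control and 7.77 CPM in CKD infarct tissue, at -2.11 ± 0.95 (edgeR adjusted p = 0.116).

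Col14a1 was the 1 member of 44 with every CKD infarct library below every control infarct library, which held for 0.979% of all genes, and no member was fully above (3.51% of all genes). Control libraries ran from 367 to 749.6 CPM and CKD libraries from 10.2 to 352 CPM, at -1.42 ± 0.53 (edgeR adjusted p = 0.0688, 0.027 by DESeq2, and -1.06 without CKD mice 9172 and 9179). Col7a1 had the second smallest p, with 9.61, 13.9 and 20.1 CPM in control and 1.26, 6.03 and 15.7 CPM in CKD infarct libraries (-1.21 ± 0.42, edgeR adjusted p = 0.0558). Col12a1 was at -1.63 ± 0.66 and Col16a1 at -1.28 ± 0.53, with an edgeR adjusted p of 0.0851 and 0.0899. Some basement membrane and pericellular chains were closer to 0, with Col4a1 at -0.47 ± 0.33, Col4a2 at -0.47 ± 0.31, Col6a1 at -0.68 ± 0.38, Col6a3 at -0.48 ± 0.45 and Col15a1 at -0.45 ± 0.36. This did not hold for all such chains. Col4a6, not called by edgeR, ran from 4.79 to 9.60 CPM (median 6.09) in control and from 1.15 to 5.46 CPM (median 4.29) in CKD infarct libraries. The lowest estimate among beaded genes was -1.37. Col18a1 was at -0.95 ± 0.44, Col8a1 at -0.91 ± 0.57 and Col13a1 at -0.11 ± 0.31.

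**Figure D4:**
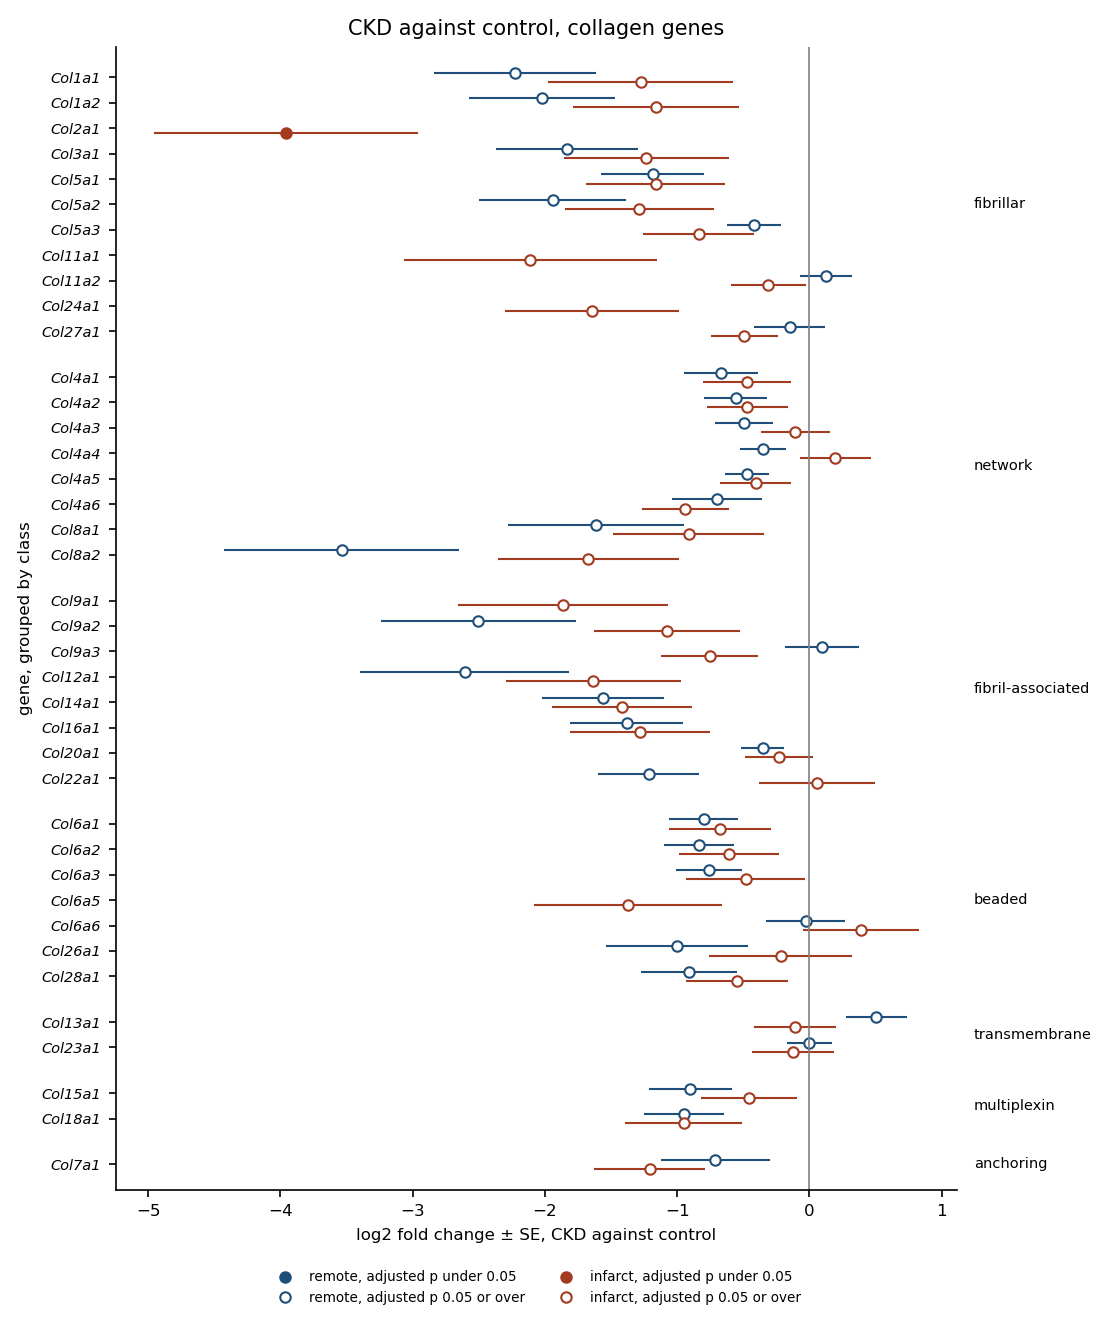
Log2 fold change ± SE of CKD against control (x axis) for each tested collagen gene (y axis, by class) in remote myocardium and infarct tissue. Open points did not pass the test. The only filled point is Col2a1 in infarct tissue (-3.96), and 31 of 34 remote and 36 of 39 infarct estimates lie below 0.

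Whether CKD acted differently in the 2 regions was tested as an interaction. No collagen gene was called, and 0% of all 14770 genes were (edgeR 0, with 2787 genes at an unadjusted p under 0.05, DESeq2 571 and limma-voom 6, none of them a collagen). Col22a1 had the smallest p of the members, with a difference of 1.27 ± 0.60 (edgeR adjusted p = 0.252). Its medians were 1.38 CPM in control remote, 0.612 in CKD remote, 1.15 in control infarct and 0.908 in CKD infarct tissue. Col9a3, a cartilage fibril-associated chain, came next at -0.84 ± 0.47 (edgeR adjusted p = 0.339), with medians of 0.773, 0.930, 1.66 and 0.826 CPM. The sign of the members' differences depended on the fit, with 28 of 39 positive and a median of 0.22 over all libraries, 12 positive and a median of -0.27 without control remote 9180, and 14 positive and a median of -0.15 with each mouse as a block. The comparisons of region and of diet share their libraries, so their values are given side by side only.

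Ratios of 2 collagen genes within a library do not depend on library scaling, and 10 ratios were compared in 4 contrasts, which made 40 exact two-sided permutation tests. None passed after Benjamini-Hochberg adjustment, the lowest adjusted p of these permutation tests being 0.0962, and with 6 mice a within-mouse test cannot go below p = 0.03125. Of the 4 pairs whose chains share a molecule, those of types VI and IV varied least. Across all 27 libraries the log2 ratio of Col6a2 to Col6a1 ran from -0.22 to 0.15 with an SD of 0.09, while the levels of these genes had SDs of 1.14 and 1.17. The log2 ratio of Col4a2 to Col4a1 ran from -0.64 to -0.11 with an SD of 0.12, against 0.69 and 0.77 for the levels. The type I pair, Col1a2 to Col1a1, had an SD of 0.30, against 2.41 and 2.67 for the levels. The type V pair, Col5a2 to Col5a1, ran from -1.48 to -0.05 with an SD of 0.45, against 2.22 and 1.83 for the levels. Levels of the type I and V genes thus also varied more than those of types VI and IV. Col1a2 stood at 0.842 to 1.19 times Col1a1 in control remote and 0.593 to 0.829 times in control infarct libraries, lower in the infarct of all 6 mice (log2 difference -0.40, exact permutation p = 0.03125, adjusted p = 0.0962).

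Some ratios between classes differed by region, while that of Col12a1 to Col1a1 differed by 0.16 in control and -0.33 in CKD mice. Col4a1 had 0.382 to 3.02 times the counts of Col1a1 in control remote, 1.499 to 3.21 times in CKD remote, 0.0546 to 0.200 times in control infarct and 0.0884 to 2.998 times in CKD infarct libraries. Infarct pieces were lower in 6 of 6 control mice, by 3.70 on the log2 scale, and in 6 of 7 CKD mice, by 2.90 (both exact permutation p = 0.03125, adjusted p = 0.0962). Col18a1 gained on Col4a1 in the infarct of all 6 control mice (log2 difference 1.53) and all 7 CKD mice (0.96, exact permutation p = 0.01562, adjusted p = 0.0962). Within the type V pair Col5a2 gained on Col5a1 in all 6 control mice (0.52) and in 6 of 7 CKD mice (0.60). Between diets the smallest p was that of Col8a1 to Col1a1 in remote tissue, where CKD libraries were higher by 0.70 on the log2 scale (exact permutation p = 0.005994, adjusted p = 0.0962).

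**Figure D5:**
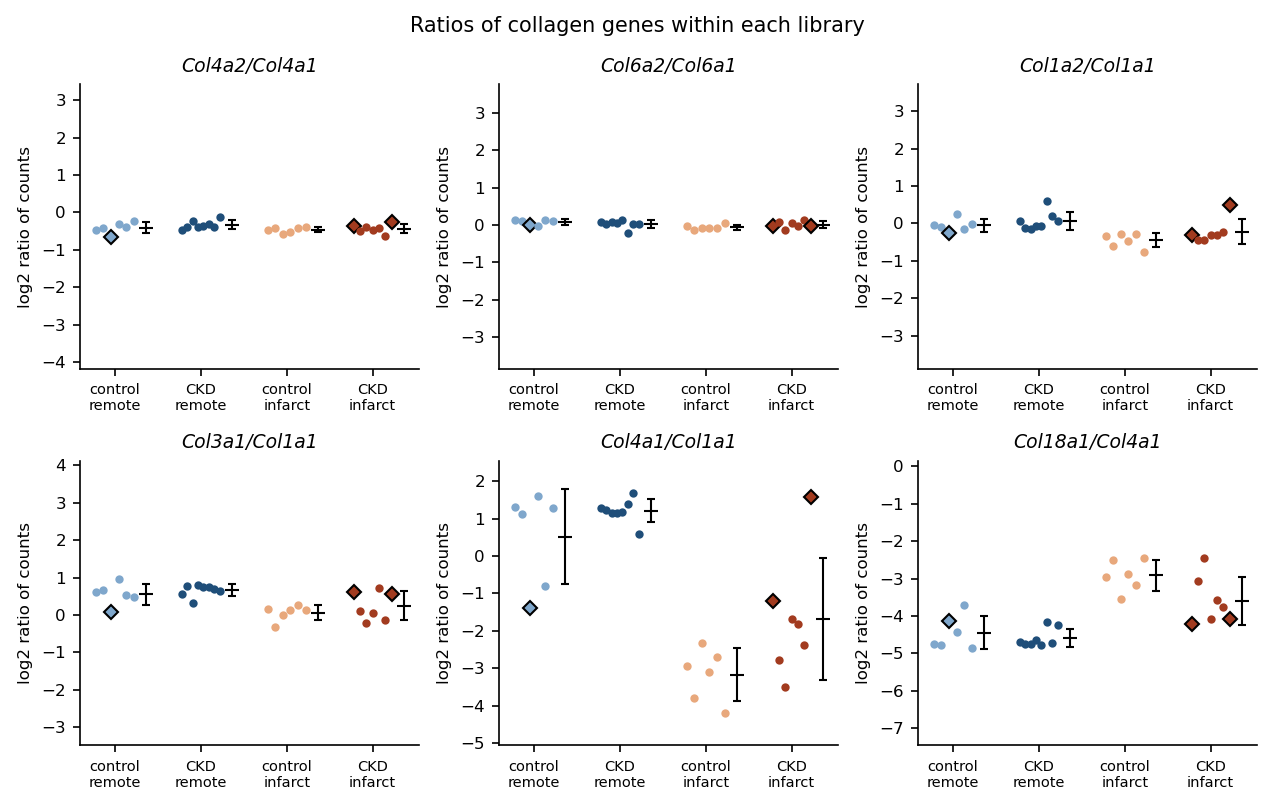
Log2 ratio of counts of 2 collagen genes (y axis, the same span in every panel) in each library (points) of the 4 groups (x axis), with mean and SD. Diamonds mark control remote 9180 and CKD infarct 9172 and 9179. Col6a2 to Col6a1 stays within -0.22 to 0.15, while Col4a1 to Col1a1 separates the 6 control infarct libraries from all remote libraries.

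Genes whose proteins modify, fold, process or bind collagen were followed as 1 list of 38, of which 37 were in the table. In control mice 31 of 37 were higher in infarct than in remote tissue, against 30.7% of all genes, and 1, the glycosyltransferase gene Colgalt2, was lower (median log2 fold change 1.65). In CKD mice these counts were 28, against 24.7% of all genes, and 1 (median 0.98). P4ha3, a prolyl hydroxylase subunit, rose by 3.67 ± 0.88 and 5.91 ± 0.97, and Lox, the lysyl oxidase that cross-links fibres, by 3.10 ± 0.85 and 4.70 ± 0.81 in the same order. In remote tissue 0 of 36 tested were called between diets, with a median of -0.31. In infarct tissue 10 of 37 were lower in CKD, which is 27.03% against 7.14% of all genes, and none was higher. Under total-count scaling 19.8% of all genes were lower in the same comparison, and the list was not counted under that scaling. No gene of the table was called in that comparison with the covariate or without any 1 of the 5 libraries named for Col2a1, so these 10 calls were lost there too. They were the prolyl 3-hydroxylase complex genes P3h1 (-1.03 ± 0.27), P3h3, Crtap and Ppib, the lysyl hydroxylase Plod2 (-1.13 ± 0.27), the chaperone Fkbp10, the propeptide proteases Bmp1 and Adamts14, and the collagen receptors Ddr2 and Itga11 (-1.87 ± 0.51). The interaction called 0 of 37.

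Of the 44 members 34 were tested in all comparisons, 5 in some and 5 in none. Those in none were Col10a1, Col17a1, Col19a1, Col25a1 and Col6a4, each of which stayed too low for the filter on counts, and nothing is said of their differences.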

How the data were processed

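Gene-level counts were deposited by the authors as 1 table of 27 libraries. Reads were quantified with kallisto 0.48.0 on GRCm39, per the submitters' processing notes, and how transcript estimates became gene counts is not given in the sources used here. Counts of genes that share reads with near-identical copies may therefore be split. The members, the class of each gene, the partner list and the marker lists were chosen with earlier results of these data known. No per-sample column was left unused.

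Counts were filtered with filterByExpr, scaled by TMM and tested by edgeR 4.0.16 in R 4.3.3 (quasi-likelihood F test, Benjamini-Hochberg adjusted p under 0.05 over all genes tested). The diets were tested separately in remote and in infarct pieces, and region and interaction came from 1 fit of all 27 libraries. Each standard error is the size of the fold change over the square root of F. DESeq2 1.42.0, limma 3.58.1 (voom with sample weights), other scalings, no filter, a cardiomyocyte covariate, a mouse block and leaving out libraries were alternatives. Total-count scaling and leaving out each library for the interaction were chosen after seeing the data. The code was tested on simulated data. Ratios and within-mouse changes used log2 with a pseudocount of 0.5, and scipy 1.17.1 ran the permutation tests. Per-length levels used the longest GENCODE transcript of GRCm38, and figures were drawn with matplotlib 3.10.9.

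Full values are given for a set of lead genes, for the 2 members with the smallest p in each comparison and for members called against the main direction, and other members by counts. A few others, such as Col8a2, Col7a1 and Col9a2, were added after their values were seen. Depth was 14255456 to 42566498 counts per library. Within groups, the 79 pairs of libraries differed beyond counting noise (lowest chi-square per degree of freedom 9.52). The pairing of infarct and remote pieces comes from the mouse numbers in the labels. Residual correlation of the 13 pairs was -0.10 to 0.40 (median 0.17, against -0.02 for pieces of other mice), and 7 pairs were over 0.1. The gene Mia3 of the partner list was not analysed here.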

Additional observations from a re-analysis of the deposited data

Results flagged for a closer look

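Across 28 genes and 4 groups, 112 groups were searched for a single library far from its fellows by Dixon's gap criterion (0.625 of the range for 6 libraries), and 20 were found. The criterion is set to flag about 1 in 20 groups of independent, normally spread values. It was applied here to CPM without a log scale, and the genes share their libraries. The number found therefore cannot be set against that rate.

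Most of these, 13, came from the remote library of control mouse 9180. It held 3866 CPM of Col1a1 against 1047 CPM in the next library, 3255 CPM of Col1a2 against 941 CPM and 4077 CPM of Col3a1 against 1511 CPM. It also held 494 CPM of Col5a1, 476 CPM of Col5a2, 30.3 CPM of Col11a1 (next 0.850), 375 CPM of Col8a1 (next 51.4) and 62.4 CPM of Col8a2 (next 5.65). Col12a1 stood at 64.3 CPM, Col14a1 at 193 CPM, Col16a1 at 130.4 CPM, Col2a1 at 4.225 CPM and Col7a1 at 8.365 CPM. Its activated-fibroblast score was 7.77, above the other control remote libraries, and its cardiomyocyte score of 11.44 was the lowest of all 14 remote libraries. Their part in these levels was not tested.

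The others were spread over 5 libraries. The infarct library of control mouse 9171 held 13504.5 CPM of Col1a2 and 257 CPM of Col18a1, and that of control mouse 9184 held 31.6 CPM of Col24a1 (next 11.9). The infarct library of CKD mouse 9175 held 78.9 CPM of Col11a1 (next 13.6) and 2.69 CPM of Col9a3 (next 1.06). The remote library of CKD mouse 9174 held 2.33 CPM of Col8a2, and that of CKD mouse 9172 held 26.6 CPM of Col27a1.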

How the results depend on the processing

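The count of collagen genes called between diets in infarct tissue was 1, but 3 with total-count scaling, 9 with DESeq2, 8 with limma-voom, 0 when the cardiomyocyte score was added as covariate, 6 in a fit of all 27 libraries and 0 without CKD mice 9172 and 9179. Leaving out 1 library gave 0 to 9, with 9 without CKD mouse 9175, 2 without CKD mouse 9174 or 9179, and 0 without any 1 of the control mice 9171, 9182 and 9183 and the CKD mice 9172 and 9177. All of these calls were lower. The calls over all genes moved too, from 1025 lower of 14358 in the main fit to 2026 of 14250 without CKD mouse 9175. They were 1213 of 14317 without 9174 and 659 of 14327 without 9179. Between regions the covariate took the count from 33 to 0 in control mice and from 31 to 17 in CKD mice. The covariate itself differs by region and diet, so the groups and the score share much of their spread. With each mouse as a replicate block the counts were 34 in control mice, 32 in CKD mice and 0 for the interaction. Over all 14770 genes they were 9758, 7200 and 0 in the same order.

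Outside the interaction, whose signs depended on the fit, 16 of the values for single genes and ratios turned direction, none of them called after the turn. In remote myocardium Col8a1 was at 0.29 with limma-voom, at 0.64 with the covariate, and from -1.82 to 0.03 when 1 library was left out. Between diets in infarct tissue the covariate gave 0.01 for Col4a2, 0.09 for Col8a1 and 0.07 for Col15a1, and leaving out 1 library gave -0.22 to 0.06 for Col13a1. Between regions in control mice the covariate gave -0.26 for Col4a1, -0.21 for Col4a2, -0.07 for Col8a1, 0.06 for Col6a6 and -0.42 for Col2a1. Without the 3 libraries that stand apart, the log2 ratio of Col4a2 to Col4a1 differed by -0.03 between diets in infarcts and that of Col6a2 to Col6a1 by 0.02 between regions in CKD mice. The cause was not tested. Genes at a few counts, such as Col11a1 and Col2a1 in remote pieces, are limited by depth.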
